A study of Mus musculus with 12 samples.

Results

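Zfp genes are mouse genes named for a zinc finger protein, and 376 records of the expression table carried a symbol of Zfp followed by a number. Members were chosen by their FPKM (fragments per kilobase of transcript at a common sequencing depth, a level corrected for transcript length), which had to reach 1 in 3 or more of the 12 libraries. Zfp36, which encodes the CCCH-type mRNA decay factor tristetraprolin, was left out. The rule left 250 expressed Zfp genes of 53801 records in the table and of 13078 genes that passed the same filter and were tested. Of the other symbols, 109 did not reach 1 FPKM in any library and 16 did so in 1 or 2. The same values chose the genes, so the levels themselves are given as a description.

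The libraries came from RAW264.7, a mouse macrophage-like line grown for 3 to 5 passages per the labels. Cells received a control small interfering RNA (siRNA; control cells) or an siRNA against Synbindin, the vesicle-tethering protein encoded by Trappc4 (silenced cells). Each was collected without lipopolysaccharide (LPS, a bacterial cell wall component) or after 4 h with 100 ng/ml of it, with 3 libraries in each of the 4 groups. The labels name no single clone and no other allele or agent, and leave it unsaid whether numbered replicates were transfected separately. The p-values therefore measure spread among these libraries alone, which may be technical. Trappc4 was at 13.2 ± 0.793 FPKM (SD, n = 3) in control and 5.89 ± 1.43 in silenced cells without LPS, and at 13.0 ± 3.22 and 7.28 ± 1.26 after LPS. Silenced cells thus kept 44.5% and 56.1% of its level, with an exact 2-sided permutation p of 0.1 at both times, the smallest that 3 against 3 libraries allow. In the limma fit used below its adjusted p was 0.0558 and 0.120, so Trappc4 itself was not called. Of 10 macrophage marker genes, 9 averaged at least 1 FPKM, while Mertk was at 0.116 or below in all 12 libraries. Marker lists of T and NK, B, fibroblast, epithelial and neutrophil cells each summed to 0.525 FPKM or less in every library. In bulk RNA, fewer cells of a kind and less RNA per cell cannot be told apart.

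Most of these genes encode C2H2 zinc finger proteins, in which each finger is folded around a zinc ion by paired cysteines and histidines and rows of fingers read DNA. Many carry a KRAB (Kruppel-associated box) domain, which recruits the corepressor TRIM28 and, through it, the histone methyltransferase SETDB1 to lay down repressive chromatin. KRAB zinc finger genes lie in clusters that grew by tandem duplication, and several are known to silence endogenous retroviruses. Others without the box act in chromatin complexes, in RNA handling or on the ribosome.

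A window from 250 bases before to 50 after each RefSeq gene start was searched for motifs, and the 250 bases upstream of the start are shown for the genes the results turn on where the table held them. Zfp811 and Zfp719 were higher and Zfp367 lower after LPS in both control and silenced cells. Sequences are from RefSeq on GRCm38.p6, 5′ to 3′ on the gene's strand, with a motif match in capitals. They are chr17:32809932-32810181 on the minus strand, chr7:43579336-43579585 on the plus strand and chr13:64153200-64153449 on the minus strand.
Zfp811: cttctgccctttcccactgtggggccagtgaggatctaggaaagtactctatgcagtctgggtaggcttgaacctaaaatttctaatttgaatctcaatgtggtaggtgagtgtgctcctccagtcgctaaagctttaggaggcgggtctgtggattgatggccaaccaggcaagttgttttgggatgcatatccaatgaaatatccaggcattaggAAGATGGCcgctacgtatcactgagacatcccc
Zfp719: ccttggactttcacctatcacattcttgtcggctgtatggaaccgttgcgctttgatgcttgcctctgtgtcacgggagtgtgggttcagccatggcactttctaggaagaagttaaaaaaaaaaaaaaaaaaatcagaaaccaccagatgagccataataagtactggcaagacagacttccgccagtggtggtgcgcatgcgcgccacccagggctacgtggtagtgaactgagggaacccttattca
Zfp367: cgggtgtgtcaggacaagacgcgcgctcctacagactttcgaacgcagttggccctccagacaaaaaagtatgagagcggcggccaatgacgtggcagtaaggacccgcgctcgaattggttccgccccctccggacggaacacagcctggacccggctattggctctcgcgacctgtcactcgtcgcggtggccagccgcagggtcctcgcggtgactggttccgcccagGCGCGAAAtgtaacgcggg
In Zfp811 the capitals mark a YY1 match on the opposite strand (GCCATNTT, found as AAGATGGC at position -33 from the start). For Zfp367 they mark an E2F match on the opposite strand (TTTNGCGC, found as GCGCGAAA at position -19). Another RefSeq start of Zfp367, with upstream bases chr13:64152374-64152623, is not printed and had an E2F match (GCGCCAAA at position -90). Zfp719 held none of the 7 motifs searched in these bases, and neither printed match overlapped another motif. Upstream sequence of Zfp362 was not in the table.

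The motifs were chosen after expression values were known and were read on both strands. RefSeq promoters were found for 210 of the 250 genes, 254 promoters in all. A YY1 match was in 12.6% of them, against 9.3% of promoters of the genes tested and 6.05% of all promoters of the table. The ETS motif CCGGAAGT was in 10.63%, against 9.08% and 3.89%, and the E2F motif in 3.15%, against 2.57% and 1.38%. The core ZNF143 motif was in 2.36%, against 0.77% and 0.3%, which was 6 promoters of Zfp genes. For factors of the LPS response, the NF-kB motif was in 1.57% of Zfp promoters, 1.78% of those of genes tested and 1.63% of all. The AP-1 motif TGANTCA was in 4.33%, 5.04% and 7.81%, and the interferon response element in 1.97%, 3.31% and 3.44%. The median number of CpG dinucleotides was 16 in Zfp promoters, 21 in those of genes tested and 7 in all, and it was 11 for genes with a KRAB box and 21 for those without.

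Expressed Zfp genes were mostly low. Their median FPKM over the 12 libraries was 2.72, against 6.63 for all genes tested, with 185 genes below 5 and 20 at 10 or more. In 159 genes the level reached 1 FPKM in all 12 libraries, and in 91 it did so in 3 to 11. Of the 249 with a coding sequence in the GENCODE M21 annotation, 245 held at least 1 match to the C2H2 pattern, with a median of 10 and at most 36, in Zfp142. A KRAB box was found in 134, with a median of 12 fingers and 2.09 FPKM, and not in 115, with a median of 7 fingers and 4.02 FPKM. The box was found by a pattern match, so genes called without one are those without a match, and a divergent box would be missed. Just inside the threshold were 12 genes at 1 FPKM in exactly 3 libraries, among them Zfp90, Zfp712 and Zfp11, which reached 1.01, 1.02 and 1.03 FPKM in the library ranked 3 for that gene. Just outside were 5, among them Zfp606, Zfp951 and Zfp418, at 0.991, 0.984 and 0.949 FPKM in that library.

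The 10 genes with the highest level over all libraries included RNA, ubiquitin and mitosis factors as well as DNA binders. Zfp207, which stabilises the checkpoint protein BUB3 at kinetochores, led at 36.2 FPKM, and Zfp106, an RNA-binding protein, followed at 34.1. Next were Zfp91, an E3 ubiquitin ligase of non-canonical NF-kB signalling, at 25.6 and Zfp598, the ubiquitin ligase that marks collided ribosomes, at 21.9. Zfp809, a KRAB protein that silences murine leukaemia virus-type retroviruses, was at 19.7 FPKM and was the highest of the genes with a KRAB box. Zfp146, a protein made almost wholly of fingers, followed at 19.2, then Zfp710 at 15.5, Zfp445, a KRAB protein that keeps imprints, at 15.3, Zfp871 at 15.2 and Zfp827, which brings the NuRD complex to telomeres, at 15.

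Summed FPKM of the set was lower in each LPS library than in any without. Without LPS the 250 genes summed to 1241, 1195 and 1254 FPKM in control and to 1194, 1218 and 1212 in silenced libraries. After 4 h of LPS the sums were 913, 927 and 905 in control and 918, 894 and 850.0 in silenced libraries. As a share of the table's FPKM, they went from 0.374% ± 0.0172 (SD, n = 3) to 0.272% ± 0.00231 in control and from 0.365% ± 0.00741 to 0.256% ± 0.0163 in silenced cells. Genes with a KRAB box summed to 450 ± 23.6 FPKM without and 328 ± 8.77 with LPS in control cells, and genes without one to 777 ± 17.6 and 584 ± 8.49. The number of Zfp genes at 1 FPKM or more was 219 to 235 per library without LPS and 193 to 202 after it. In no LPS library did 28 of the 250 reach 1 FPKM, and 2 (Zfp811 and Zfp993) reached it in no library without LPS. Those 28 and these 2 passed the filter through libraries on one side alone, so a difference between the sides was built into their choice.

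**Figure D1:**
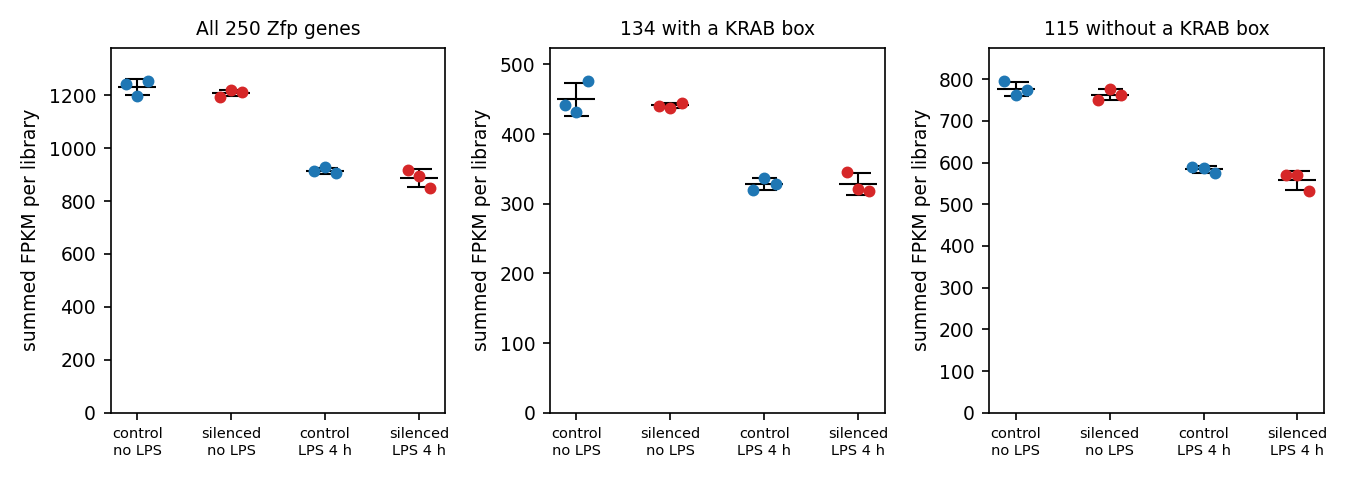
Summed FPKM of the 250 Zfp genes, of the 134 with a KRAB box and of the 115 without one, in each of 12 libraries (points; blue control, red silenced), with the mean and SD of each group of 3 in black. LPS libraries lie between 850.0 and 927 FPKM for all genes, below the 1194 to 1254 of libraries without LPS.

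Fold changes were fitted with limma on log2(FPKM + 1), a scale that understates changes of low genes, and a gene was called at a Benjamini-Hochberg adjusted p under 0.05 over the 13078 genes tested. In control cells, LPS lowered 103 of 250 Zfp genes (41.2%) and raised 4 (1.6%). Among all genes tested, 32.9% were called lower and 15.3% higher. Before adjustment, 50.8% of the Zfp genes and 54.9% of all genes had p under 0.05. For silenced cells the counts were 109 lower (43.6%) and 6 higher (2.4%), where 35.5% and 13.0% of all genes were. Before adjustment the shares there were 54.0% and 54.6%. Of the lower calls, 19 and 12 were among the 28 genes that passed the filter only through libraries without LPS. Of the higher calls, 1 in each cell state was Zfp811, which passed it only through LPS libraries. The median log2 fold change of the 250 was -0.35 in control and -0.37 in silenced cells, against -0.17 and -0.21 for all genes. Without overlap between the groups, 49.2% and 58.0% of Zfp genes were lower in control and silenced cells (38.0% and 41.9% of all genes), and 6 and 9 genes were higher (18.2% and 16.0% of all genes).

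The share of lower calls depended in part on how libraries were scaled, while the Zfp median stayed below 0 under each scaling. With median-ratio scaling the median of all genes tested went from -0.17 and -0.21 to 0.01 and 0.01, and the Zfp median to -0.19 in control and -0.16 in silenced cells. Relative to the median of all genes, the Zfp median was -0.18 and -0.16 as deposited, -0.21 and -0.18 with median-ratio scaling and -0.09 and -0.08 with quantile normalization. Of called Zfp genes, 96.3% in control and 94.8% in silenced cells were lower as deposited. That share was 83.3% and 79.5% with median-ratio scaling (70 and 58 lower, 14 and 15 higher) and 81.6% and 80.6% with quantile normalization (62 and 54 lower, 14 and 13 higher). For all genes tested the share was 68.3% and 73.2% as deposited, 48.2% and 48.9% with median-ratio scaling and 57.4% and 59.8% with quantile normalization. Median-ratio scaling called 28.0% and 23.2% of Zfp genes lower, against 22.5% and 21.7% of all genes, and 5.6% and 6.0% higher, against 24.1% and 22.7%. With quantile normalization 24.8% and 21.6% of Zfp genes were called lower, below the 25.8% and 25.6% of all genes, and 5.6% and 5.2% higher, against 19.1% and 17.2%.

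Genes of like level were compared because Zfp genes are low. Under 2 FPKM, 35.2% of 88 Zfp genes were called lower in control cells, against 25.5% of all genes of that level. From 2 to under 5 FPKM the shares were 42.3% of 97 and 39.0%, and at 5 FPKM and over 47.7% of 65 and 33.0%. Calls in the other direction were fewer among Zfp genes at each level, 1.14%, 2.06% and 1.54%, against 10.1%, 8.96% and 19.4% of all genes. These counts keep the 28 Zfp genes that passed the filter only through libraries without LPS, 19 of them called lower in control cells. Their fall was built into their choice, and with every LPS value under 1 FPKM they bear most on the lowest level. The same filter chose all genes tested.

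**Figure D2:**
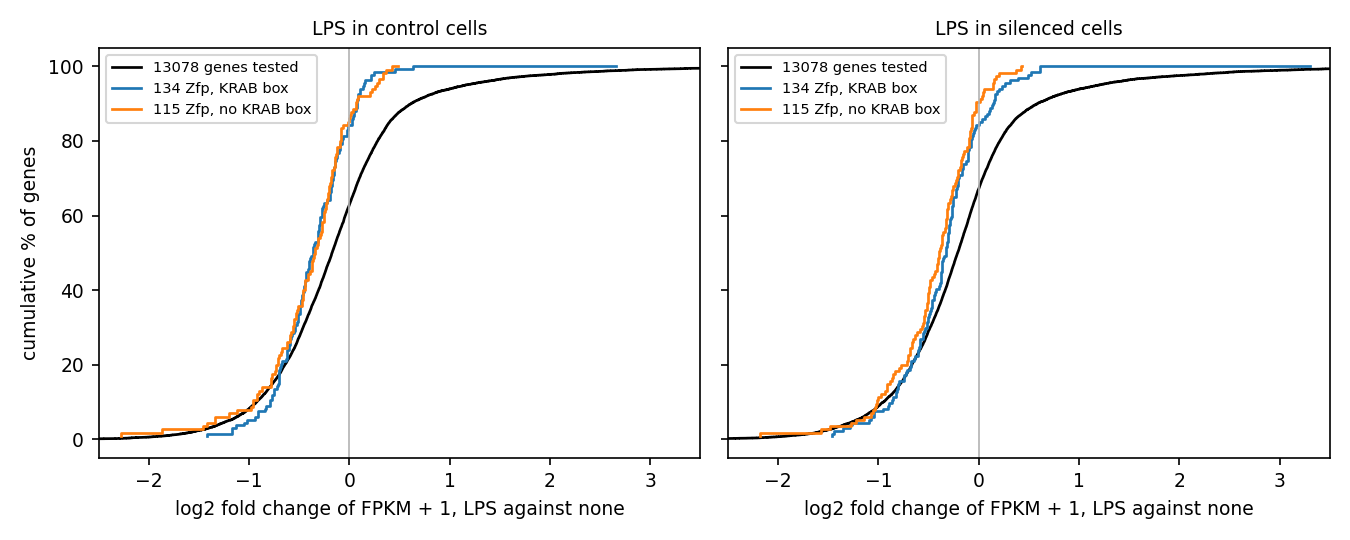
Cumulative share of genes by log2 fold change of FPKM + 1, LPS against none, in control (left) and silenced cells (right), for all 13078 genes tested (black) and Zfp genes with (blue) and without a KRAB box (orange). Both Zfp curves lie left of the black one over most of their range, with medians of -0.36 and -0.34 in control and -0.33 and -0.39 in silenced cells, and stop short of its upper tail apart from Zfp811; the axis runs from -2.5 to 3.5, which leaves out the ends of the black curve.

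Responses to LPS in control and silenced cells, which share no library, had a Pearson r of 0.76 across the 250 genes; genes are not independent replicates. In both, 72 were called lower and 3 higher (27.2% and 10.5% of all genes tested), 31 were called lower in control alone and 37 in silenced cells alone, and 103 were called in neither direction in either. A call in one cell state alone is no difference between them, which the interaction below tests.

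**Figure D3:**
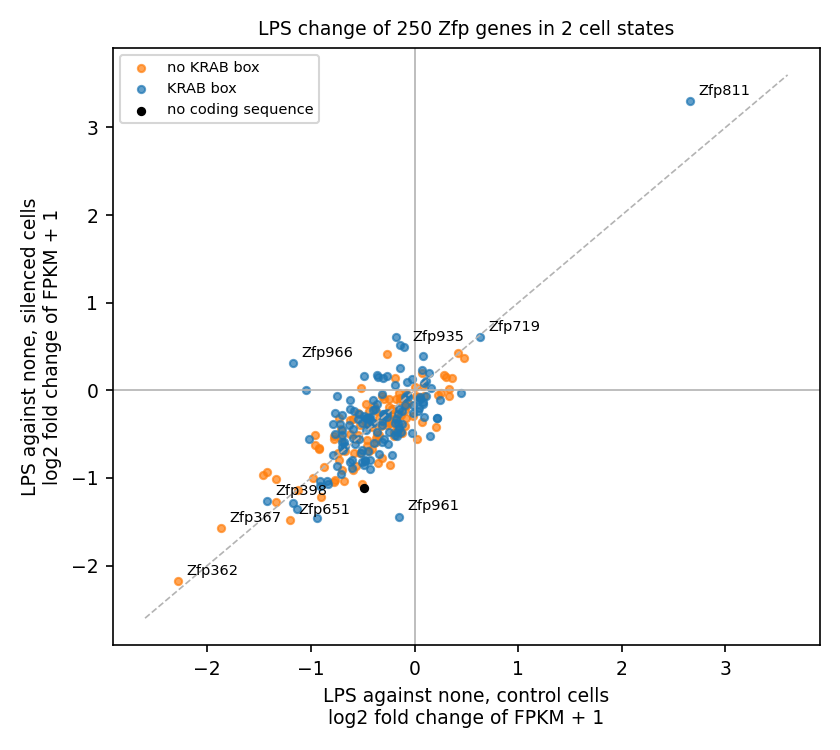
Log2 fold change of FPKM + 1 with LPS in control (x axis) and silenced cells (y axis) for the 250 Zfp genes, coloured by KRAB box, with the line of equal change dashed. Most points lie at the lower left, where 194 genes were negative in both, and Zfp811 stands alone at 2.66 and 3.30.

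The largest log2 fold change among the 250 was that of Zfp811 (ENSMUSG00000055202, chr17:32795676-32809931, minus strand), a KRAB gene with 13 fingers. Without LPS it was at 0.313, 0 and 0.171 FPKM in control and 0, 0.0567 and 0 in silenced libraries. After LPS it was at 8.04, 4.35 and 7.08 FPKM in control and 7.65, 8.91 and 10.7 in silenced libraries. All 6 LPS libraries lay above all 6 without. The log2 fold change was 2.66 ± 0.19 (SE) in control and 3.30 ± 0.19 in silenced cells. Only the LPS libraries brought the gene past the filter, so these values are a description and no test is given. Gm23294 and Gm25555 overlap it on the same strand, at no more than 0.393 FPKM on average.

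Zfp719 (ENSMUSG00000030469, chr7:43579610-43593235, plus strand), another KRAB gene with 13 fingers, rose in both cell states. It was at 4.16, 3.74 and 3.89 FPKM in control and 3.48, 3.62 and 3.13 in silenced libraries without LPS. After LPS it was at 5.68, 7.16 and 7.17 FPKM in control and 5.90, 4.99 and 6.42 in silenced libraries. Its groups did not overlap, with log2 fold changes of 0.63 ± 0.11 (adjusted p = 0.000763) and 0.61 ± 0.11 (adjusted p = 0.00087).

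Zfp516, an activator of brown fat genes with no KRAB box, also rose in both. Its level was 0.725, 0.737 and 1.08 FPKM without and 1.57, 1.76 and 1.38 with LPS in control libraries, and 0.488, 0.705 and 0.733 without and 1.14, 1.22 and 1.01 with LPS in silenced libraries. The groups did not overlap. Among libraries without LPS only that at 1.08 FPKM reached 1, so the gene passed the filter through the LPS libraries. A rise was thus partly built into its choice. The log2 fold changes of Zfp516 were 0.48 ± 0.14 (adjusted p = 0.0133) and 0.37 ± 0.14 (adjusted p = 0.0419). The first was lost without control LPS library 2 (adjusted p = 0.0507). The second was lost without any 1 of 8 libraries, the 6 silenced ones and control LPS 1 and 2 (adjusted p 0.0513 to 0.134). It was also lost with a common sum per library (0.0639), with the replicate number as a block (0.0552) and in a fit of only the groups compared (0.0755).

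Zfp330, a nucleolar protein without a C2H2 match, was called higher in control cells, where it was at 7.74, 7.49 and 7.03 FPKM without and 8.66, 10.5 and 8.54 with LPS (log2 fold change 0.28 ± 0.10, adjusted p = 0.0362). The call was lost without any 1 of the 3 control libraries without LPS or without control LPS 2 (adjusted p 0.0534 to 0.146). In silenced cells the log2 fold change was 0.17 ± 0.10 (adjusted p = 0.178).

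A further 3 KRAB genes were called higher in silenced cells. Zfp935 was at 4.61, 4.40 and 4.35 FPKM without and 7.19, 6.11 and 6.70 with LPS in silenced libraries, and at 5.85, 4.67 and 5.37 without and 5.17, 4.37 and 5.09 with LPS in control libraries. The log2 fold change in silenced cells was 0.49 ± 0.10 (adjusted p = 0.00183), with no overlap; in control cells the groups overlapped (-0.10 ± 0.10, adjusted p = 0.454). Zfp58 went from 0.746, 1.39 and 0.796 to 2.37, 1.73 and 1.92 FPKM in silenced libraries (0.61 ± 0.19, adjusted p = 0.0184), and was not called without silenced library 1 or 3 without LPS or silenced LPS 1 (0.0598 to 0.0663). Zfp658 went from 0.560, 0.770 and 0.658 to 1.26, 1.49 and 1.39 FPKM there (0.52 ± 0.16, adjusted p = 0.0163), and was not called without silenced library 1 or silenced LPS 2 (0.0533 and 0.0537). Among silenced libraries only those with LPS brought Zfp658 to 1 FPKM, so its rise may be partly built into its choice. The interaction called none of the 3. Zfp935 has a second record of the same symbol on 65.6% of its transcript and Zfp58 shares 51.2% of its with Gm26965 at 98% identity or more, so both are uncertain.

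**Figure D4:**
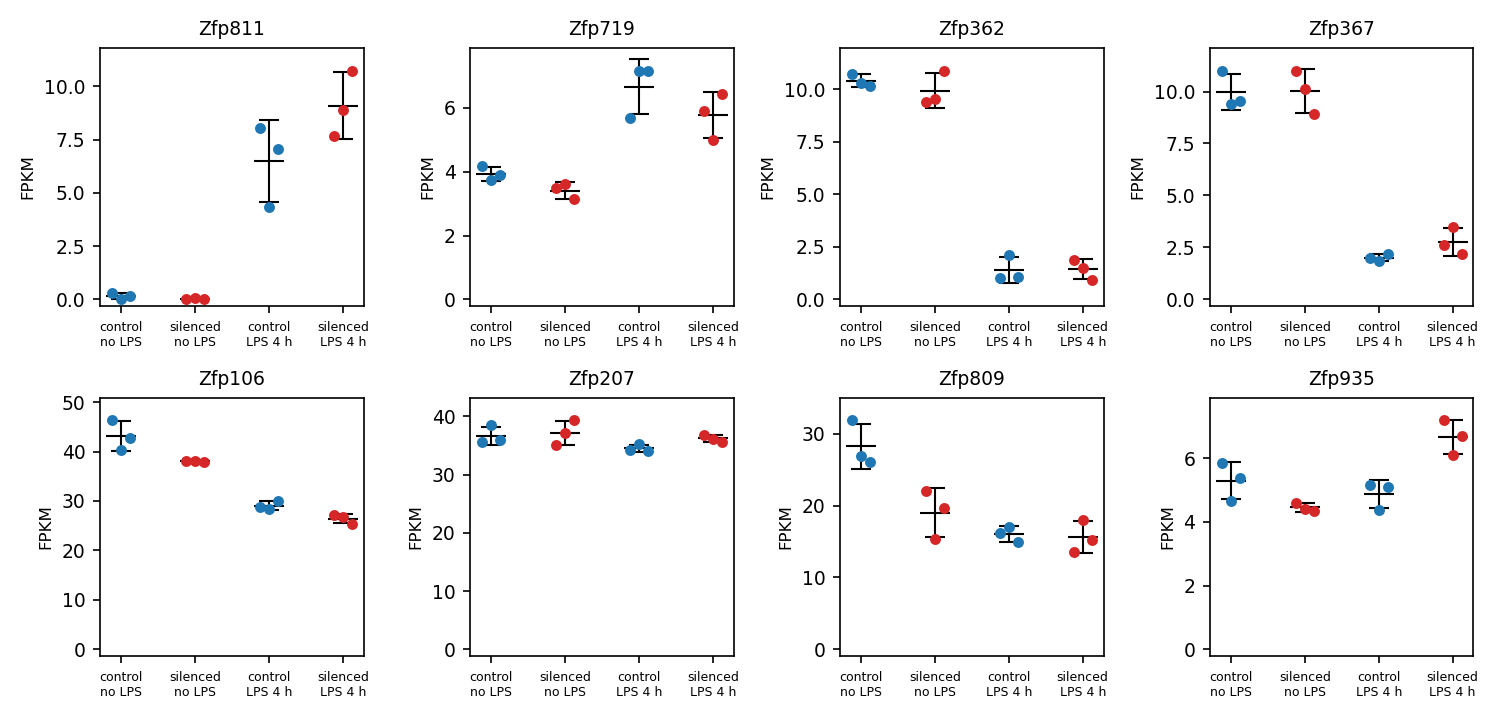
FPKM of 8 Zfp genes in each of 12 libraries (points; blue control, red silenced), with the mean and SD of each group of 3 in black; each panel has its own axis. Zfp811 and Zfp719 are higher and Zfp362, Zfp367 and Zfp106 lower in all LPS libraries, Zfp207 stays between 34.1 and 39.3 FPKM, Zfp809 is highest in control cells without LPS, and Zfp935 is highest in silenced cells after LPS.

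The largest fall was that of Zfp362 (ENSMUSG00000028799, chr4:128773088-128806045, minus strand), which has 6 fingers and no KRAB box. It was at 10.8, 10.3 and 10.2 FPKM in control and 9.38, 9.53 and 10.9 in silenced libraries without LPS. LPS libraries were at 1.01, 2.09 and 1.07 FPKM in control and 1.87, 1.49 and 0.939 in silenced cells. Every LPS library lay far below every library without LPS. The log2 fold changes were -2.28 ± 0.18 (adjusted p = 1.46e-06) and -2.18 ± 0.18 (adjusted p = 1.81e-06).

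Zfp367 (ENSMUSG00000044934, chr13:64133018-64153202, minus strand), a 2-finger factor known as an activator of fetal globin genes, was next. Its control libraries were at 11, 9.38 and 9.56 FPKM without and 2.0, 1.82 and 2.16 with LPS. Silenced libraries were at 11, 10.1 and 8.94 FPKM without and 2.60, 3.47 and 2.18 with LPS. The groups lay apart, with log2 fold changes of -1.87 ± 0.13 (adjusted p = 6.70e-07) and -1.57 ± 0.13 (adjusted p = 2.33e-06).

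Zfp398, which can bind the oestrogen receptor, fell from 2.82, 2.66 and 3.31 to 0.283, 0.298 and 0.884 FPKM in control and from 2.10, 1.95 and 2.01 to 0.252, 0.263 and 0.260 FPKM in silenced libraries (-1.42 ± 0.16 and -1.26 ± 0.16). Zfp651 fell from 1.99, 1.75 and 1.87 to 0.319, 0.179 and 0.267 FPKM in control and from 2.40, 2.30 and 1.74 to 0.220, 0.0926 and 0.0607 FPKM in silenced libraries (-1.20 ± 0.14 and -1.48 ± 0.14). Zfp652, a corepressor partner, had means of 4.01 ± 1.19 (SD, n = 3) without and 0.951 ± 0.053 FPKM with LPS in control and 2.90 ± 0.615 and 0.931 ± 0.16 in silenced cells (-1.34 ± 0.17 and -1.01 ± 0.17). Zfp398 and Zfp651 passed the filter only through libraries without LPS, and their values are a description. Zfp652, with Zfp362 and Zfp367, was called lower in both cell states under every alternative that tested them. The LPS means of Zfp652, 0.951 and 0.931 FPKM, lay under the 1 FPKM of the filter, so its fall may be partly built into its choice.

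Among KRAB genes, Zfp958 and Zfp971 fell in both cell states under each alternative too. Zfp958 was at 6.91, 7.66 and 7.65 FPKM without and 3.76, 2.57 and 2.32 with LPS in control libraries (-1.13 ± 0.15) and fell by 1.35 ± 0.15 on the log2 scale in silenced cells. Zfp971 was at 4.88, 7.0 and 7.61 FPKM without and 1.92, 2.74 and 2.25 with LPS in control libraries (-1.17 ± 0.16) and fell by 1.28 ± 0.16 in silenced cells. Both sets of groups lay apart.

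Other large falls rested on fewer libraries or on uncertain values. Zfp703, a corepressor without a C2H2 match, went from 4.00, 2.87 and 2.63 to 0.128, 0.439 and 1.67 FPKM in control libraries (-1.34 ± 0.40, adjusted p = 0.0165) and had -1.27 ± 0.40 in silenced cells (adjusted p = 0.0210). It was not called without control library 1 or control LPS 1 (0.0574 and 0.0669), nor, in silenced cells, without silenced library 1 or 3 or silenced LPS 2 or 3 (0.0607 to 0.0844). Of its control LPS libraries only that at 1.67 FPKM reached 1, so the fall there may be partly built into its choice. Zfp69 had -0.94 ± 0.28 in control and -1.46 ± 0.28 in silenced cells, where it went from 1.56, 3.56 and 3.14 to 0.385, 0.183 and 0.429 FPKM. Zfp69 passed the filter only through libraries without LPS, so its values are a description and no test is given.

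Zfp961 was at 5.22, 2.28 and 5.82 FPKM without and 0.653, 0.695 and 1.49 with LPS in silenced libraries (-1.44 ± 0.46, adjusted p = 0.0217), a call lost without silenced library 1 or 3 or silenced LPS 1 or 2 (0.0623 to 0.0761). Its control groups overlapped (0.935, 3.92 and 4.14 without, 0.755, 3.2 and 3.84 FPKM with LPS). Zfp966 was at 1.71, 1.35 and 2.31 FPKM in control libraries without LPS and is listed at 0, 0 and 0.841 with LPS. Those 3 libraries without LPS alone brought it past the filter, so no test is given. It shares 75.6% of its transcript with other genes at 98% identity or more, so reads may have been assigned among copies.

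Of 8 genes tested for Zfp proteins of RNA and the ribosome, 3 fell in control (37.5%) and 4 in silenced cells (50%), and none rose. Of all genes, 32.9% and 35.5% were called lower and 15.3% and 13.0% higher, which is the background for this list and the 3 that follow. Zfp106 fell from 46.3, 40.3 and 42.6 to 28.7, 28.4 and 30.0 FPKM in control libraries (-0.55 ± 0.07, adjusted p = 5.73e-05) and from 38.1, 38.0 and 37.8 to 27.1, 26.7 and 25.4 in silenced libraries (-0.51 ± 0.07). Zfp706, a short protein with 1 finger, fell from 15.7 ± 1.39 (SD, n = 3) to 11.6 ± 1.74 FPKM in control and from 16.5 ± 0.793 to 10.0 ± 0.797 in silenced cells (-0.41 ± 0.11 and -0.67 ± 0.11), and median-ratio scaling ended the first call.

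Zfp326, a subunit of a complex that couples elongation and splicing, had -0.46 ± 0.17 (adjusted p = 0.0428) in control cells, lost without any 1 of 7 libraries (control 1 and 3, silenced 2, control LPS 1, 2 and 3, silenced LPS 2; adjusted p 0.0557 to 0.118), and -0.57 ± 0.17 (adjusted p = 0.0155) in silenced cells, lost without silenced 1 or silenced LPS 3 (0.0671 and 0.0675). Zfp346, which binds double-stranded RNA, was called in silenced cells (-1.07 ± 0.38, adjusted p = 0.0365), a call lost without any 1 of 5 of the 6 silenced libraries, all but silenced LPS 1 (0.0531 to 0.152). Zfp598 was at 22.4 ± 1.18 without and 23.1 ± 2.80 FPKM with LPS in control cells, and silenced cells had 21.6 ± 1.38 and 20.4 ± 1.56. Its log2 fold changes were 0.04 ± 0.10 and -0.08 ± 0.10. Zfp622, a factor of large ribosomal subunit maturation (0.21 ± 0.22 and -0.42 ± 0.22), Zfp638 (0.02 ± 0.22 and -0.55 ± 0.22) and Zfp830 (-0.17 ± 0.14 and -0.32 ± 0.14) were not called. In silenced cells, however, Zfp638 was called lower in 4 and Zfp830 in 3 of 22 alternatives, a common sum per library among them for both.

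Of 13 genes of chromatin and transcription complexes, 12 were tested, while Zfp532 was below the filter. In control cells 8 fell (66.7%, against 32.9% of all genes) and 1, Zfp516, rose (8.33%, against 15.3%). In silenced cells 7 fell (58.3%, against 35.5%) and 1 rose (8.33%, against 13.0%). Zfp148, a GC-box binding factor, fell from 11.9, 11.8 and 12.4 to 7.10, 7.41 and 6.05 FPKM in control libraries (-0.73 ± 0.09) and from 12.2, 11.6 and 11.5 to 7.16, 6.31 and 5.76 in silenced libraries (-0.79 ± 0.09). Zfp609, a partner of the cohesin loader, fell from 14.6, 15 and 14.8 to 8.23, 9.07 and 8.57 FPKM in control (-0.71 ± 0.08) and from 10.9, 11.9 and 13.1 to 8.13, 8.11 and 7.48 in silenced libraries (-0.54 ± 0.08). Both were called under all 22 alternatives.

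Zfp592 and Zfp687, which sit together in a transcription complex with ZMYND8, had -0.78 ± 0.11 and -0.53 ± 0.10 with a control siRNA and -0.55 ± 0.11 and -0.40 ± 0.10 in silenced cells. Zfp217, a CoREST partner, had -0.62 ± 0.12 and -0.50 ± 0.12, and Zfp462, with 33 fingers, -0.70 ± 0.12 and -0.91 ± 0.12. Zfp644, a partner of the methyltransferase G9a, was called in control cells (-0.55 ± 0.14, adjusted p = 0.00834) and had -0.26 ± 0.14 in silenced cells. Zfp143, the mouse ZNF143, an activator that binds promoters, was called in silenced cells (-0.47 ± 0.10, adjusted p = 0.00252) and had -0.20 ± 0.10 in control cells. Median-ratio scaling and quantile normalization each ended the calls of Zfp644 and Zfp143 and, in silenced cells, of Zfp687 and Zfp217, and quantile normalization that of Zfp592 in silenced cells. Zfp410, an activator of Chd4, had -0.25 ± 0.09 in control cells (adjusted p = 0.0396), called in 7 of 21 alternatives, lost with the replicate number as a block (adjusted p = 0.0525) and lost without any 1 of 9 of the 12 libraries (adjusted p 0.0504 to 0.127); the call held without silenced 3, control LPS 2 or silenced LPS 3. Zfp281 (0.08 ± 0.10 and 0.05 ± 0.10) and Zfp827 (0.09 ± 0.17 and -0.07 ± 0.17) were not called.

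Of 7 repressors of retroelements or keepers of imprints, 4 passed the filter, while Zfp819, Zfp708 and Zfp57 did not. Zfp809 fell in control cells, from 31.8, 26.9 and 26.0 to 16.2, 17.1 and 14.9 FPKM (-0.77 ± 0.14, adjusted p = 0.000748), with no overlap. In silenced libraries it was at 22, 15.4 and 19.7 FPKM without and 13.5, 18 and 15.3 with LPS, which overlap (-0.26 ± 0.14, adjusted p = 0.138). Zfp445 fell from 17.5, 16.6 and 17.4 to 13.0, 12.8 and 13.7 FPKM in control libraries (-0.36 ± 0.07, adjusted p = 0.00142), a call that median-ratio scaling ended, and had -0.16 ± 0.07 in silenced cells (adjusted p = 0.0765). Zfp932, a repressor of endogenous retroviruses, had -0.38 ± 0.15 and -0.21 ± 0.15, and Zfp568, a repressor of a placental Igf2 transcript, 0.25 ± 0.19 and -0.11 ± 0.19, with no call. Of 21 alternatives, 4 called Zfp932 lower in control cells.

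Of 5 genes with roles in immune cells or signalling, 2 fell in both cell states. Zfp318, which controls IgD splicing in B cells, fell from 11.8, 12.2 and 11.8 to 6.35, 6.01 and 5.30 FPKM in control (-0.92 ± 0.09, adjusted p = 9.90e-06) and from 10.1, 8.82 and 10.6 to 6.05, 5.49 and 5.90 in silenced libraries (-0.67 ± 0.09). Zfp91 went from 28.5, 27.0 and 29.8 to 24.6, 23.9 and 23.9 FPKM in control (-0.23 ± 0.07, adjusted p = 0.0163) and from 28.9, 27.8 and 27.8 to 22.6, 21.3 and 20.6 in silenced libraries (-0.37 ± 0.07, adjusted p = 0.0008). Median-ratio scaling ended both calls of Zfp91, and the first was lost without control library 3 (adjusted p = 0.0553). Zfp335, a factor of T cell maturation (0.07 ± 0.15 and 0.20 ± 0.15), Zfp341, an activator of Stat3 (0.00 ± 0.12 and 0.04 ± 0.12), and Zfp110, which binds the p75 neurotrophin receptor (0.05 ± 0.08 and -0.08 ± 0.08), were not called.

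Of the other genes with a high level, Zfp710 fell from 20.6, 21.4 and 17.4 to 10.0, 14.1 and 9.60 FPKM in control libraries (-0.78 ± 0.19, adjusted p = 0.00557). In silenced cells it had -0.52 ± 0.19 (adjusted p = 0.0407), not called without control 1, silenced 1 or 2 or silenced LPS 2 or 3 (adjusted p 0.0520 to 0.163). Zfp871 had -0.49 ± 0.14 in control cells (adjusted p = 0.0143), not called without control 3 or control LPS 1 (0.0592 and 0.0603), and -0.29 ± 0.14 in silenced cells. Zfp207 was at 36.6 ± 1.59 without and 34.5 ± 0.609 FPKM with LPS in control and 37.2 ± 2.12 and 36.2 ± 0.627 in silenced cells, and Zfp146 at 18.5 ± 1.32 and 18.5 ± 0.609 in control and 20.4 ± 0.805 and 19.5 ± 1.5 in silenced cells. As deposited neither was called, but with median-ratio scaling Zfp207 was called higher in silenced cells (0.24, adjusted p = 0.0152) and Zfp146 in control cells (0.22, adjusted p = 0.0347), while quantile normalization called Zfp207 lower in control cells (-0.20, adjusted p = 0.0311).

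Genes with and without a KRAB box were counted apart. Among all genes tested, 32.9% in control and 35.5% in silenced cells were called lower with LPS, and 15.3% and 13.0% higher. Of 134 with the box, 52 were called lower in control and 52 in silenced cells (38.8% each), with 2 and 5 higher. Of 115 without it, 50 and 56 were lower (43.5% and 48.7%), with 2 and 1 higher. Median log2 fold changes were -0.36 and -0.33 with the box and -0.34 and -0.39 without. By number of fingers, 28 of 48 genes with up to 5 (58.3%) were called lower in control cells and 37 of 80 with 6 to 10 (46.3%). The counts were 23 of 76 with 11 to 15 (30.3%) and 14 of 45 with over 15 fingers (31.1%). The median levels of the 4 finger classes over all libraries fell with finger number, from 5.72 to 2.97, 2.57 and 2.05 FPKM, and the part of level in these counts was not tested. In silenced cells the counts were 25, 38, 34 and 11 (52.1%, 47.5%, 44.7% and 24.4%).

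Zfp genes lay close together on a few chromosomes, with 60 on chromosome 7, 35 on 17 and 23 on 13. Joining genes less than 500 kb apart gave 11 runs of at least 5 genes, holding 94, and 26 runs of 2 to 4, holding 64; 92 stood alone. In the run at chr6:47835661-48086593, all 6 genes (Zfp398, Zfp282, Zfp212, Zfp956, Zfp777 and Zfp746) fell in both cell states, with a median log2 fold change of -0.70 in each. This run was singled out after its values were seen. Zfp398 passed the filter only through libraries without LPS, so its fall was built into its choice. Of all genes tested, 32.9% in control and 35.5% in silenced cells were called lower. Zfp282 was at 7.07, 8.98 and 9.02 FPKM without and 4.85, 5.01 and 4.72 with LPS in control libraries, and Zfp777 at 6.93, 7.60 and 6.49 without and 4.28, 4.94 and 3.88 with LPS. A KRAB match was found in 1 of the 6, though a box that departs from the patterns searched would be missed.

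The longest run, 17 genes at chr17:21008903-22456689, all with a KRAB box, had 5 lower in control and 6 in silenced cells and a median of -0.30 and -0.32. All genes tested had medians of -0.17 and -0.21, with 32.9% and 35.5% called lower and 15.3% and 13.0% higher, the background for these runs. A run of 14 KRAB genes at chr13:67038596-67755228 had 5 lower in each, with Zfp58 higher in silenced cells. The run around Zfp811, 11 genes at chr17:32765496-33631779, had 7 lower in control and 5 in silenced cells beside that single rise. Zfp563 and Zfp763 of this run passed the filter only through libraries without LPS, as did Zfp712, Zfp456 and Zfp458 of the chromosome 13 run. Zfp811 passed it only through LPS libraries. Changes of these genes were built into their choice. The genes on either side of Zfp811, Zfp871 and Zfp799, were called lower in control cells and not in silenced cells. Zfp799 went from 2.76, 2.92 and 3.13 to 1.68, 1.68 and 2.37 FPKM in control libraries (-0.44 ± 0.14, adjusted p = 0.0229; in silenced cells -0.23 ± 0.14, adjusted p = 0.209), and Zfp871 is described above.

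KRAB proteins act through a shared set of corepressors, of which 29 were listed and all were tested. LPS lowered 17 and raised 1 in control cells and lowered 17 and raised 2 in silenced cells. The share lowered was 58.6% in each, where 32.9% and 35.5% of all genes were. Trim28, the corepressor that KRAB boxes bind, fell from 52.2 ± 2.60 (SD, n = 3) to 31.1 ± 3.42 FPKM in control and from 55.7 ± 2.78 to 25.5 ± 3.59 in silenced cells (-0.73 ± 0.11 and -1.11 ± 0.11). Setdb1, its histone methyltransferase, fell from 24.7 ± 1.20 to 13.7 ± 0.582 and from 22.9 ± 1.32 to 12.1 ± 0.558 FPKM (-0.81 and -0.86), and Uhrf1, which brings the maintenance DNA methyltransferase to replicated DNA, from 49.2 ± 3.06 to 7.56 ± 2.03 and from 43.9 ± 8.56 to 6.71 ± 3.03 FPKM (-2.58 and -2.61). Daxx, a histone H3.3 chaperone, rose from 14 ± 4.14 to 84.1 ± 11.6 and from 12 ± 1.12 to 83.9 ± 5.22 FPKM (2.53 and 2.71). None of the 29 was called with silencing, and at an unadjusted p under 0.05 there were 1 without and 6 after LPS.

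No Zfp gene was called with silencing of Synbindin. Without LPS, limma called 0 of 250 (0.214% of all genes tested were called, 0.122% higher and 0.0918% lower), and for 20 the p before adjustment was under 0.05 (12% of all genes). After LPS it called 0 (0.719% of all genes, 0.314% higher and 0.405% lower), with 16 at an unadjusted p under 0.05 (13.0% of all genes). The count was 0 under each of the alternatives run as well. Median log2 fold changes were 0.02 and -0.03, and for all genes 0.01 and -0.03. The 95% interval of the change lay within 2-fold either way for 232 of 250 genes without LPS and for 244 after LPS, on the log2(FPKM + 1) scale. Without overlap between the groups, 13 were higher and 23 lower without LPS (9.86% and 8.35% of all genes) and 15 higher and 23 lower after LPS (7.62% and 11.3% of all genes). Summed macrophage markers were 1595 to 1732 FPKM in control and 2193 to 2648 in silenced libraries without LPS, and 1528 to 1914 and 2051 to 2778 after it. Lyz2 was at 508 to 588 FPKM in control and 958 to 1344 in silenced libraries without LPS, and at 435 to 509.9 and 834 to 1242 after it. Cd14 was at 172 to 199 and 265 to 322 FPKM without LPS and at 297 to 475 and 447 to 699 after it. Without Lyz2 and Cd14 the sums were 887 to 975 FPKM in control and 919 to 982 in silenced libraries without LPS, and 787 to 952 and 770.1 to 863 after it, ranges that overlap. The part of Lyz2 and Cd14 in these results was not tested.

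**Figure D5:**
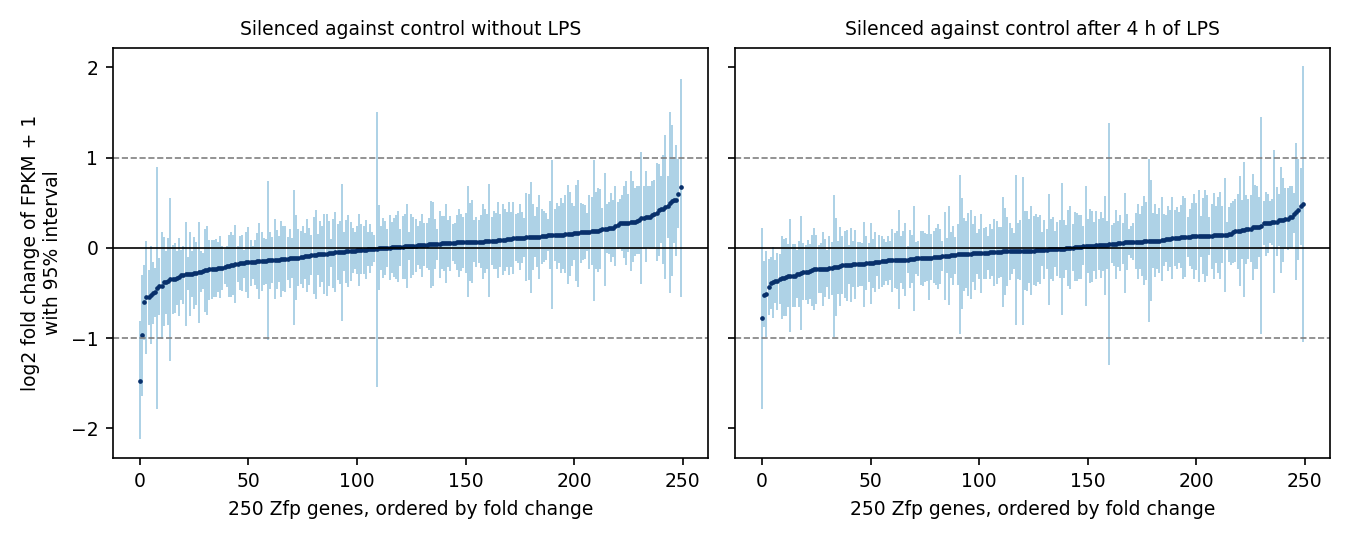
Log2 fold change of FPKM + 1, silenced against control cells, for the 250 Zfp genes in order of size (points), with 95% intervals from limma (bars), without LPS (left) and after LPS (right); dashed lines mark a 2-fold change. Most intervals cross 0, and 232 and 244 lie wholly between the dashed lines.

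The 4 genes with the smallest p without LPS are given although none was called. Zfp966 was at 1.71, 1.35 and 2.31 FPKM in control and is listed at 0 in all 3 silenced libraries, with the uncertainty about its copies given above. Only the control libraries brought it past the filter, so it had to differ and its test is not given. Zfp809 was at 31.8, 26.9 and 26.0 FPKM in control and 22, 15.4 and 19.7 in silenced libraries, which do not overlap (-0.55, 95% interval -0.86 to -0.25, adjusted p = 0.156). Zfp1 was at 9.16, 7.89 and 9.36 against 6.0, 6.19 and 5.70 FPKM (-0.49, -0.77 to -0.22, adjusted p = 0.167), also without overlap. Zfp608 was at 0.989, 0.612 and 0.739 in control and 2.14, 1.46 and 1.53 FPKM in silenced libraries, which alone brought it past the filter, so its test is not given either.

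After LPS the smallest p was that of Zfp935, at 5.17, 4.37 and 5.09 FPKM in control and 7.19, 6.11 and 6.70 in silenced libraries (0.38, 0.16 to 0.61, adjusted p = 0.122). Zfp219 was at 1.95, 1.77 and 1.57 in control and 1.31, 1.1 and 1.02 FPKM in silenced libraries (-0.37, -0.61 to -0.13, adjusted p = 0.170). Neither pair of groups overlapped. Zfp469 (-0.52, -0.88 to -0.15) and Zfp526 (-0.43, -0.74 to -0.12) had an adjusted p of 0.201 and 0.222.

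The interaction asks whether the LPS change differed between silenced and control cells. It called 0 of 250 Zfp genes (0.0612% of all genes tested, 0.0382% higher and 0.0229% lower), and for 14 the p before adjustment was under 0.05 (11.3% of all genes). No Zfp gene moved one way in control and the other way in silenced cells with groups that did not overlap in both. Zfp935 had the smallest p, with a difference of 0.59 (95% interval 0.27 to 0.90, adjusted p = 0.214). Then came Zfp966, given no test for the reason above, Zfp275 (-0.61, -1.02 to -0.20, adjusted p = 0.300) and Zfp658 (0.66, 0.17 to 1.14, adjusted p = 0.325). The limit given above on the choice of Zfp658 holds here too. Zfp275 was at 7.54, 6.61 and 5.29 FPKM without and 5.25, 5.13 and 5.54 with LPS in control libraries, and at 7.82, 7.68 and 7.45 without and 4.66, 3.12 and 3.73 with LPS in silenced libraries.

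Many of these genes have close copies or overlap other genes, which bears on any FPKM. Of the 250, 86 share a stretch of at least 100 bases at 98% identity with another gene, over at least 20% of the transcript for 23 and over at least 50% for 12. Another gene overlaps 50 of them on the same strand and 75 on the opposite one. How reads with more than 1 match were assigned, and the strand setting of the counting, is not given in the sources used here, so the values of these genes are uncertain.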

How the data were processed

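RNA was sequenced from 12 libraries of RAW264.7 cells. The values are gene FPKM as deposited by the authors. Per the submitters' processing notes, HISAT2 and StringTie were used with GRCm38, and libraries kept strand per the labels' protocols. The release of the annotation and how reads with more than 1 match were counted are not given in the sources consulted. Low FPKM values were whole multiples of 1 step, within 1%, for only 4.03% to 11.7% of values, where 2% would be by chance, so reads could not be recovered and the depth behind each value is unknown; libraries held 11672 to 12351 genes at 1 FPKM or more.

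Values were analysed as log2(FPKM + 1) with limma 3.58.1 (R 4.3.3) for genes reaching 1 FPKM in 3 or more libraries; the model had a mean for each group, used all 12 libraries and an intensity trend, and left 8 residual degrees of freedom. Tests were 2-sided, with Benjamini-Hochberg adjustment over 13078 genes; the fit was tested on simulated data. Fingers were matches of C-x(2 to 4)-C-x12-H-x(3 to 5)-H, and KRAB boxes matches within the first 300 residues, in the longest GENCODE M21 coding sequence, in place of the RefSeq proteins first planned. A KRAB box that departs from the patterns used was counted as absent. Named are Trappc4, the 10 genes of highest mean, up to 8 called genes at either end of each LPS comparison whose groups did not overlap, the 4 smallest p of each silencing comparison and the interaction, role lists, genes nearest the threshold and up to 4 called corepressors. The genes and lists were chosen with earlier results of these data known. Zfp282, Zfp777 and Zfp799 were named after their values were seen.

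The alternatives were a pseudocount of 0.1, other filters on low values, 3 other scalings, blocking on replicate number, dropping the groups not compared, dropping the trend, and leaving out each library in turn.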

Additional observations from a re-analysis of the deposited data

How the results depend on the processing

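Silencing and interaction counts stayed at 0 under each alternative run. For LPS, the medians over the Zfp genes kept their direction under the 3 other scalings. A mean FPKM of at least 5 tested 65 Zfp genes and called 1 higher and 31 lower in control and 1 and 30 in silenced cells. Median-ratio scaling called 14 higher and 70 lower in control and 15 and 58 in silenced cells, and quantile normalization 14 and 62, and 13 and 54. The share called lower stayed above that of all genes with median-ratio scaling (28.0% and 23.2%, against 22.5% and 21.7%). It did not with quantile normalization (24.8% and 21.6%, against 25.8% and 25.6%). Of the genes called lower as deposited, 70 and 58 kept the call with median-ratio scaling, 61 and 54 with quantile normalization, and 68 of 103 and 70 of 109 with every library left out in turn. Leaving out 1 library gave 3 to 5 higher and 86 to 107 lower in control cells and 3 to 7 higher and 82 to 111 lower in silenced cells; the 3 came without silenced library 1 (no LPS).

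The replicate number as a block gave 5 higher and 101 lower in control and 5 and 108 in silenced cells, and of the named genes' calls it ended those of Zfp410 (control) and Zfp516 (silenced). Deviations of same-numbered libraries correlated from -0.0274 to 0.189 (median 0.0488, 18 pairs) and of others from -0.125 to 0.133 (median -0.0457, 36 pairs), and 8 of 12 libraries correlated best with one of their own number, a hint from the data and not the design. The numbers were not taken as pairs because not every same-numbered pair was over 0.1 and the labels do not tie them.

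Changes of sign were all of values not called as deposited, apart from Zfp410 in control cells (0.0095 with quantile normalization), and the cause was not tested. With median-ratio scaling, in silenced cells, they became 0.18 (Zfp110), 0.20 (Zfp146), 0.24 (Zfp207, called), 0.02 (Zfp410), 0.10 (Zfp445), 0.08 (Zfp568), 0.19 (Zfp598) and 0.19 (Zfp827), and in control cells 0.14 (Zfp207), 0.14 (Zfp341), 0.04 (Zfp830), 0.09 (Zfp935) and 0.0019 (Zfp961). With quantile normalization, in silenced cells, they became 0.12 (Zfp110), 0.0094 (Zfp146), 0.07 (Zfp410), 0.12 (Zfp568), 0.01 (Zfp644), 0.10 (Zfp827) and 0.06 (Zfp932), and in control cells 0.03 (Zfp143), 0.22 (Zfp341), 0.04 (Zfp58), 0.04 (Zfp658), 0.0013 (Zfp830), 0.15 (Zfp935) and 0.07 (Zfp961). A common sum per library gave -0.02 (Zfp146) and -0.0022 (Zfp638) in control and -0.01 (Zfp281) in silenced cells. With 1 library left out in turn, control values ranged over both signs for Zfp146 (-0.05 to 0.05), Zfp335 (-0.06 to 0.21), Zfp341 (-0.08 to 0.05), Zfp598 (-0.05 to 0.11), Zfp622 (-0.01 to 0.39), Zfp638 (-0.12 to 0.24), Zfp827 (-0.06 to 0.25) and Zfp961 (-0.61 to 0.30), as did silenced values of Zfp207 (-0.07 to 0.0053), Zfp281 (-0.0032 to 0.10), Zfp341 (-0.02 to 0.10) and Zfp827 (-0.18 to 0.08). That of Zfp966 ranged from 0.0 to 0.47.

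Beside the calls already given, quantile normalization and median-ratio scaling each ended those of Zfp326 (both cell states), Zfp346 and Zfp710 (silenced), quantile normalization those of Zfp703 and Zfp961 (silenced) and median-ratio scaling that of Zfp871 (control). Median-ratio scaling called Zfp281 higher in both, Zfp110 and Zfp598 in control and Zfp330 and Zfp335 in silenced cells. Fitting only the groups compared ended the calls of Zfp91, Zfp330 and Zfp410 (control) and of Zfp326, Zfp516 and Zfp710 (silenced). With no filter, 4 Zfp genes were called higher and 87 lower in control and 6 and 87 in silenced cells. Of all records tested there, 7.89% and 7.12% were called higher and 16.3% and 17.3% lower. Among named genes it ended the calls of Zfp326 and Zfp410 (control) and of Zfp346, Zfp703, Zfp710 and Zfp961 (silenced).

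Precision is limited by 3 libraries a group, by levels near 1 FPKM, where the log2(FPKM + 1) scale shrinks changes, and by reads shared between near-identical copies.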

Other observations

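Other zinc finger families, taken by symbol, were tested in the same fit, in which 32.9% and 35.5% of all genes were called lower and 15.3% and 13.0% higher with LPS in control and silenced cells. Of 34 Zbtb genes, which pair fingers with a BTB domain, LPS lowered 17 and raised 2 in control and lowered 15 and raised 4 in silenced cells. Zbtb32 rose in both, from 20.2 FPKM to 97.6 in control cells (log2 fold change 2.22 and, in silenced cells, 1.83). Of 14 Zkscan and Zscan genes, which carry a SCAN domain, 8 and 7 fell and none rose. Of 17 genes taken by the KLF and SP symbols, 9 fell and 5 rose in each cell state. The 5 were Klf6, Klf7, Sp100, Sp110 and Sp140, and the last 3 encode nuclear body proteins with no C2H2 fingers. Sp140 went from 4.00 to 32.0 FPKM in control cells (2.69).

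The Zc3h genes, whose CCCH fingers bind RNA, had 5 of 15 raised in each cell state and 4 and 6 lowered. Zc3h12a, which encodes the RNase regnase-1, rose from 5.33 to 25.1 FPKM in control and from 4.55 to 40.9 FPKM in silenced cells (2.05 and 2.92). It was called higher in silenced cells after LPS (0.68, adjusted p = 0.00724) and in the interaction (0.87, adjusted p = 0.0271), the 1 gene of these 4 families called there.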
